A study of Mus musculus with 36 samples.

Results

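Open chromatin was examined at 10 genes of blood vessel endothelium in mouse hand and foot dissections that the labels describe as chondrocytes. The genes are Kdr, Flt1, Tek, Tie1, Cdh5, Pecam1, Emcn, Vwf, Sox17 and Sox18, out of 21887 protein-coding genes. Their regions were taken as all ATAC-seq peaks that overlapped the gene body or the 50 kb on either side of it in any of 12 peak lists, after peaks that shared at least 1 bp had been merged. This gave 53 regions out of 65543 in all lists. A region counted as called in a list where a peak of that list covered at least 1 bp of it.

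ATAC-seq uses a transposase that cuts and tags accessible DNA, so a peak marks chromatin that was open in at least some cells of the dissected tissue. The tissue came from embryos of the inbred strain FVB/NJ at stage E15.5, with no other allele or treatment in any group. The 12 groups were every combination of 3 factors: the limb, the element and the digit. The limb was a forelimb or a hindlimb. The element was the phalanges or the metapodials, meaning metacarpals in the hand and metatarsals in the foot. Digits I, III and V were taken, with 3 libraries each and 36 in all. Each library pooled the left and right elements of 3 to 5 embryos of 1 litter, from 6 to 10 limbs, and phalanges of a digit were pooled along its length. The files hold 1 peak list per group, made from pooled libraries, so each list is a single measurement and every error below is the spread between lists.

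Endothelial cells line blood vessels. They respond to vascular endothelial growth factor through the tyrosine kinase receptors encoded by Kdr and Flt1, and to angiopoietins through Tek, with Tie1 as its co-receptor. Cdh5 encodes the cadherin of their junctions, Pecam1 an adhesion molecule at the same junctions, Emcn a surface sialomucin, Vwf a secreted clotting glycoprotein, and Sox17 and Sox18 transcription factors of arterial and early vessel endothelium. Cartilage of the growing digit has no vessels of its own, and vessels run through the perichondrium and surrounding mesenchyme and enter the cartilage at ossification.

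The lists held 36194 to 53276 peaks, with median widths of 1739 to 2223 bp, and 34178 to 50089 regions were called per list. They did not end at a common significance: the lowest deposited −log10 p-value was 23.0 in metacarpal V and 49.6 in metacarpal I, so a region missing from a list may lie below that list's threshold. The chondrocyte label was checked on 16 cartilage genes. A region lay within 1 kb of the start of 14 of them in every list, Sox9, Col2a1 and Acan included. The same held for 63.7% of all protein-coding genes. Matn1, a cartilage matrix gene, was covered in 11 lists and the start of Sox5 in none.

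Promoter sequence is shown first, because the start sites divided the 10 genes into a covered and an uncovered set. RefSeq promoters (GRCm38.p6, which shares the coordinates of mm10, the build of the peak lists) were given for 5 of the 10. The 250 bases before the start are printed 5′ to 3′ on the strand of the gene. Capitals mark matches, on either strand, to 4 motifs. CCGGAA and its variant CAGGAA hold the core letters bound by ETS factors, which regulate many endothelial genes. GGGCGG is the letters of a GC box. The motif of the TATA box was searched as the letters TATAAA.
Kdr: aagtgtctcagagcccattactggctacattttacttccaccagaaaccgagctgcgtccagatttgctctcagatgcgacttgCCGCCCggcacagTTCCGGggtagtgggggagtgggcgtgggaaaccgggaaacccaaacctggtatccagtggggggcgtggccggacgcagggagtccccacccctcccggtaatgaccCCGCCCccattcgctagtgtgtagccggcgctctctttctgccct
Flt1: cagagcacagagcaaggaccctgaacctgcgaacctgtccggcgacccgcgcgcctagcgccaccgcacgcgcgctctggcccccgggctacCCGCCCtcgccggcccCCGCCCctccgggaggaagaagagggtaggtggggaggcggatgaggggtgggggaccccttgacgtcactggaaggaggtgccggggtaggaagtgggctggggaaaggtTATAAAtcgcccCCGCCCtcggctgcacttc
Tek: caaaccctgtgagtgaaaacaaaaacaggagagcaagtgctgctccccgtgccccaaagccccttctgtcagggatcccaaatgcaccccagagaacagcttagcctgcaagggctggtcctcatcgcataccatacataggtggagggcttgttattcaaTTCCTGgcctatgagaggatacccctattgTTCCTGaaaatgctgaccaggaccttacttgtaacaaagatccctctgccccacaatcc
Tie1: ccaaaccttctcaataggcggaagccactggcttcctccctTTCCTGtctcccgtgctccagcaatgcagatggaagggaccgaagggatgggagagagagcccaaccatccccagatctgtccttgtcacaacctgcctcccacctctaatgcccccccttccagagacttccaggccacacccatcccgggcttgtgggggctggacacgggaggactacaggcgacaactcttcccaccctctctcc
Emcn: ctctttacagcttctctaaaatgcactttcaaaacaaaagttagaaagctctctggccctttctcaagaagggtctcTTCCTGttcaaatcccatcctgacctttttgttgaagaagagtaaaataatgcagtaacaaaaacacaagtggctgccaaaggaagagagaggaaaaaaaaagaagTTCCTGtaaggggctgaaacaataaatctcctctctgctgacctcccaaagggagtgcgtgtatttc

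The Kdr sequence lies at chr5:75978456-75978705 on the minus strand and that of Flt1 at chr5:147726012-147726261 on the minus strand. The Tek sequence lies at chr4:94739039-94739288 on the plus strand, that of Tie1 at chr4:118489850-118490099 on the minus strand, and that of Emcn at chr3:137340828-137341077 on the plus strand. Regions covered the Kdr, Flt1 and Tek starts in every list and the Tie1 and Emcn starts in none. Kdr and Flt1 had the sequences richest in CpG among the 5, with observed to expected CpG ratios of 0.676 and 0.744. Tie1 and Emcn were poor in CpG, at 0.280 and 0.0965. Tek differed: with a ratio of 0.126 and 2 CpG dinucleotides in 250 bases, its start was still covered in all 12 lists. Among all 21263 promoters of the table, 96.7% of those with a ratio of at least 0.6 were covered in every list, against 35.8% of those below 0.6. CAGGAA was found in the Tek sequence (89 and 59 bases before the start), the Emcn sequence (173 and 67 bases before) and the Tie1 sequence (209 bases before), and in 24.5% of all promoters. Kdr held CCGGAA 153 bases before the start, as 15.0% of promoters do. GC boxes stood in Kdr and Flt1 (42.6% of all promoters) and a TATA box in Flt1 (11.6%). The letters AGATAA, a motif of the GATA family, were searched on both strands and found in none of the 5 sequences, and in 8.81% of all promoters. None of the 5 held ACAATG, a motif of the SOX family (9.35% of all promoters). The same was true of GTAAACA, a motif of the forkhead family (2.62%). No matches overlapped, and a match is only a description of the letters.

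The vascular endothelial growth factor receptors had the highest start peaks by fold percentile. Kdr (chr5:75932827-75979072) had 4 regions, and the region at its start, chr5:75976316-75979696, was called in all 12 lists. Its fold enrichment, the peak caller's own ratio over background, was 25.6 in metacarpal V, the lowest, and 63.0 in hand phalanges III, the highest. To compare lists of different strength, each peak was ranked by fold within its own list. The Kdr start peak stood at the 83.5th to 93.4th percentile (median 91.5). By median it was above the other covered starts of the 10 genes. It was close to Col11a1 (median 93.1), a fibrillar collagen gene of cartilage. Such ranks were not particular to these receptors. The 8 regions at starts of neighbouring genes had mean percentiles from 13.8 (Gm29797) to 96.4 (Bean1), beside 90.5 for Kdr and 80.1 for Flt1. A second Kdr region in every list, chr5:75932180-75936067, covers the 3′ end of the gene, 44.3 kb downstream of the start. The remaining Kdr regions were weak and rare: one 55.9 kb downstream was called in metacarpal III and foot phalanges III only, and one 37.4 kb upstream in metatarsal I and foot phalanges III only.

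Flt1 (chr5:147561604-147726438), which encodes the other receptor of the same ligand and binds it as a decoy, had 12 regions, more than any other of the 10 genes, 8 of them inside the gene. The start region chr5:147723765-147728069 was called in all lists, at the 74.6th to 85.7th fold percentile (median 78.5), level with Sox9 at a median of 78.5. Its fold enrichment ran from 16.3 in metacarpal V to 42.6 in metacarpal I. A region inside the gene, chr5:147587811-147590985, was also in all lists. The other 10 regions of Flt1 varied between lists. One of them, chr5:147611438-147612115, 114.2 kb inside the gene, was called in metatarsal III and foot phalanges I only. Its fold enrichments there were 18.5 to 20.1, at the 64.8th to 71.1th percentile. Both calls remained in the more significant 50% of each list. Why the other lists lacked this region was not tested. The region chr5:147644803-147646730, 80.2 kb inside the gene, was called in 5 of 6 hindlimb lists and in 1 of 6 forelimb lists. The region chr5:147715554-147717453, 9.50 kb inside, showed the other order, with 4 forelimb lists and 1 hindlimb list, and 4 phalanges lists against 1 of metapodials. A region beyond the 3′ end, chr5:147551804-147553128, was called in 4 phalanges lists and in no metapodial list.

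Tek (chr4:94739086-94874976), the angiopoietin receptor gene, had 4 regions. The start region chr4:94736817-94740044 was called in every list, with fold enrichments of 7.93 in hand phalanges V to 20.1 in metatarsal I and a median percentile of 56.3. By fold it was near the middle of its lists, well under Kdr and Flt1. The other 3 regions of Tek varied by element, and not by element alone. The region chr4:94751117-94753684, 13.1 kb inside the gene, was called in 4 metapodial lists and 1 phalanges list. By limb, these were 4 hindlimb lists and 1 forelimb list. The regions chr4:94890947-94892358 and chr4:94912622-94913689 lay beyond the 3′ end, inside the neighbouring gene Eqtn. They were called in 4 phalanges lists each, and in 0 and 1 metapodial lists. By limb, the first was called in 2 hindlimb and 2 forelimb lists, and the second in 1 hindlimb and 4 forelimb lists.

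Tie1 (chr4:118471191-118489849) had no region inside the gene and none at the start, whose nearest region lay 23.6 kb away. Regions at the starts of the neighbouring genes Elovl1 and Cdc20 were called in every list. The region of this window that varied, chr4:118464821-118466294, lies between genes, 24.3 kb downstream of the Tie1 start. It was called in all 6 metapodial lists, with fold enrichments of 12.1, 15.1 and 8.49 in metacarpals I, III and V and of 5.83, 10.4 and 7.65 in metatarsals I, III and V. Among phalanges it was called only in hand phalanges III, at 5.94. That phalanges value lay inside the metapodial range. Of the 5 phalanges lists without the region, 4 ended at a −log10 p-value below the weakest call of the region (41.9). Whether the thresholds account for the missing calls was not tested. Without the hand phalanges III list, the region would separate metapodials from phalanges. The number of called regions of Tie1 was 3.17 ± 0.41 in phalanges lists and 4 in every metapodial list, which did not pass (exact permutation p = 0.0625, two-sided, adjusted p = 0.861).

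**Figure D1:**
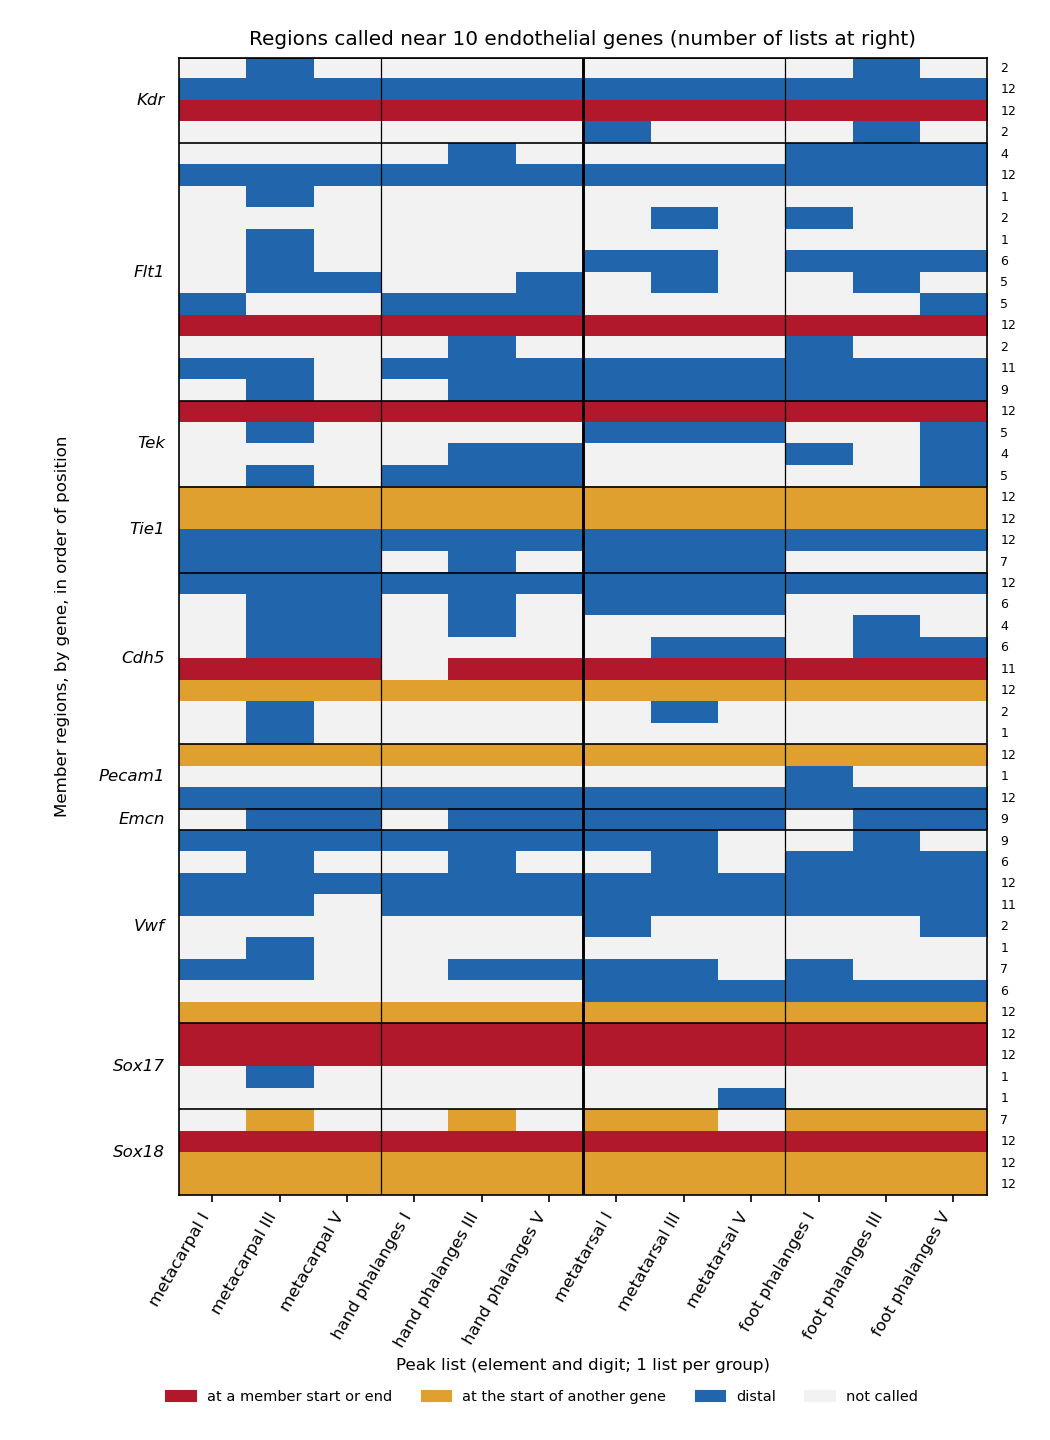
Calls of the 53 regions (rows, grouped by gene and in order of position) in the 12 peak lists (columns, forelimb left of the heavy line), coloured by position, with the number of lists at the right. Rows at starts are filled across all lists for Kdr, Flt1, Tek, Sox17 and Sox18, and of the 34 rows with gaps 32 are distal, the others being the Cdh5 gene end and the start of Gm29797.

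Of the junction and surface genes, Emcn and Pecam1 had no region within 1 kb of a start, and Cdh5 had one at a single end, through the peak of 1 list. Cdh5 (chr8:104101613-104144504) had 8 regions, and the gene body itself was free of regions apart from its end. The files give no strand for Cdh5, Pecam1, Vwf, Sox17 and Sox18, and for these either gene end was accepted as the start. The only Cdh5 end covered was the one at higher coordinates, by chr8:104144431-104148078, called in 11 lists with a median fold percentile of 39.0. That cover rested on 1 list: only the foot phalanges III peak reached the gene end, and without that list neither end of Cdh5 was covered in any list. With peaks required to cover 50% of the region it was called in 3 lists, and with windows of 500 bp round summits in place of whole peaks, neither end of Cdh5 was covered in any list. The end at lower coordinates, which is the 5′ end by general knowledge of this gene, was 9.04 kb from the nearest region. On that side lay 4 regions, of which the farthest, chr8:104045759-104053161, was called in every list. The other 3 varied by element and digit. The region chr8:104059675-104063371 was called in 5 metapodial lists and 1 phalanges list. The region chr8:104090703-104092569 was called in 3 lists of digit III, 3 of digit V and none of digit I. The region chr8:104075794-104077962 was likewise missing from all 4 digit I lists, and was called in 3 digit III lists and 1 digit V list. Beyond the upper end, the remaining Cdh5 regions lay at or inside the neighbouring gene Bean1. The region at the Bean1 start was called in every list. Inside Bean1, chr8:104176087-104177669 was called in metacarpal III and metatarsal III only, and chr8:104191312-104191897 in metacarpal III only.

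**Figure D2:**
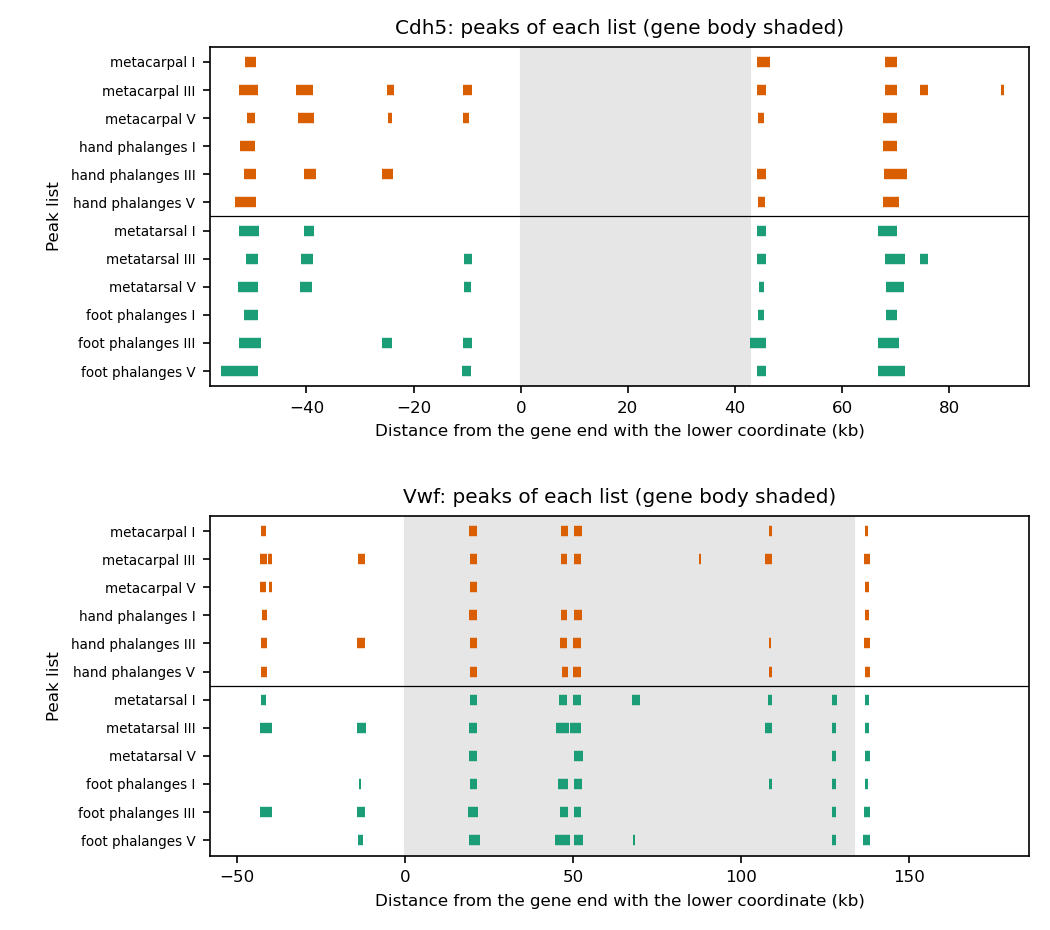
Peaks of each list (rows, forelimb orange, hindlimb green) round Cdh5 and Vwf against distance from the lower gene end in kb, with the gene body shaded. The Cdh5 body is empty up to its upper end, and in Vwf the peaks at about 127 kb appear in the 6 hindlimb rows only.

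Pecam1 (chr11:106654213-106715281) had 3 regions. The region chr11:106657126-106659055, inside the gene and 2.91 kb from the lower end, was called in all lists at fold enrichments of 6.65 in metacarpal V to 12.8 in foot phalanges I. The end at higher coordinates was 56.2 kb from the nearest region. Of the others, one was the start of Tex2, in every list, and one was called in foot phalanges I only.

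Emcn (chr3:137341062-137431069) had the emptiest window, with 1 region in 190 kb, or 0.526 per 100 kb. The median over all protein-coding genes was 3.80 per 100 kb, and 12.3% of genes were as sparse or sparser. The region, chr3:137292932-137293975, lies between genes, 47.6 kb upstream of the start. It was called in all 4 lists of digit III, with fold enrichments of 6.67 in metacarpals, 8.50 in hand phalanges, 8.30 in metatarsals and 9.95 in foot phalanges, and in all 4 of digit V, at 5.16, 5.95, 6.74 and 5.31 in the same order. Of the 4 digit I lists only metatarsal I held it, at 5.88, inside the range of digit V. The 3 digit I lists without it ended at −log10 p-values of 31.0 to 49.6, and the 9 calls had values of 24.5 to 112. Of those calls, 5 lay above the highest of these thresholds and the other 4 did not. The part of the thresholds in the missing calls was not tested.

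Vwf (chr6:125552948-125686679) had 9 regions, 6 of them inside the gene. A region 20.6 kb inside from the lower end, chr6:125571868-125575236, was called in every list, with fold enrichments of 14.1 in foot phalanges V to 26.1 in metacarpal I, so Vwf carried a strong internal region without any region over either end. Its other region in every list was the start of Ano2. One region of the 53 separated a class completely. It was chr6:125679919-125681450, 1532 bp wide, inside Vwf and 5.23 kb from the upper end, present in each of the 6 hindlimb lists while no forelimb list had it. Its fold enrichments were 5.68, 6.64 and 7.24 in metatarsals I, III and V and 7.67, 5.46 and 7.29 in foot phalanges I, III and V. Across all regions, 50, or 0.0763%, were called in every hindlimb list and no other. The 53 regions, though, were searched for either side of limb, element and each digit, so this share covers only part of that search. Of all regions, 78 were in every phalanges list and no other, 60 in every metapodial list and 77 in every digit III list. Each of the remaining patterns had at most 17. The calls of the Vwf region ranked low, at fold percentiles of 7.17 to 36.3 within their lists. Their −log10 p-values ran from 40.0 to 56.4, and 4 of the 6 forelimb lists ended below 40.0. When all lists were shortened to the 36194 most significant peaks, 3 of the 6 hindlimb calls remained. In the more significant 50% of each list the region was not called at all. The region chr6:125509758-125513535, outside the gene, was called in all 6 forelimb lists and 3 hindlimb lists.

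The transcription factor genes are short, and both ends were covered. Sox17 (chr1:4490928-4497426) had chr1:4490508-4495162 and chr1:4495743-4498400 over its ends in all lists. The first, at the lower end, had a median fold percentile of 62.9. The second, at the upper end, stood at the 23.7th to 66.4th percentile (mean 46.1). Which end is the start was not given. Its other 2 regions were each in 1 list. Sox18 (chr2:181669837-181671640) lay wholly inside chr2:181669496-181674727, called in all lists, though peaks covered 50% of this wide merged region in only 2. With 500-bp windows round summits, a Sox18 end was covered in all 12. The peak had a fold enrichment of 6.39 in metacarpal V and 22.7 in hand phalanges I, and a median percentile of 60.9 with a wide range of 26.8 to 67.1. Of the other 3 Sox18 regions, all at starts of other genes, those of Tcea2 and Rgs19 were in every list and that of Gm29797 in 7 lists.

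**Figure D3:**
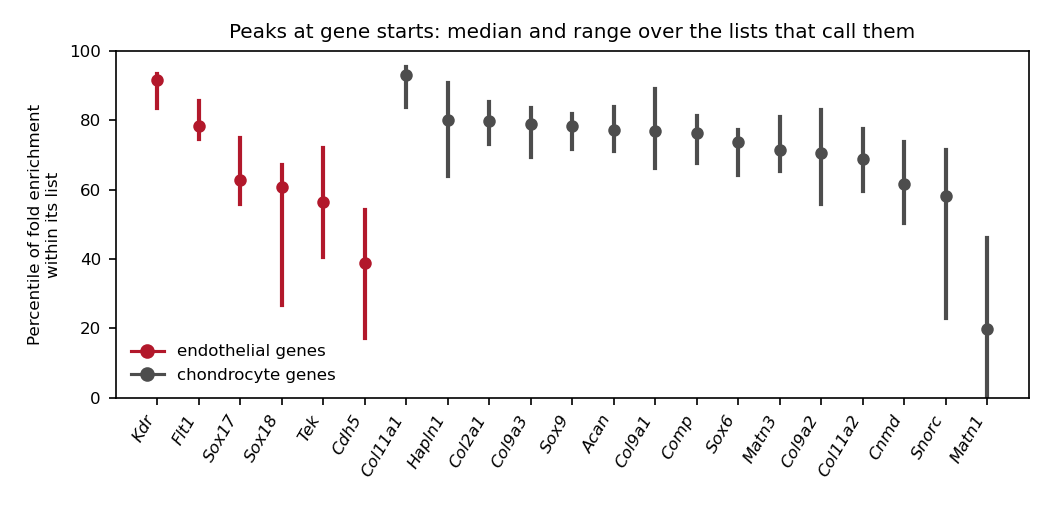
Percentile of fold enrichment within its own list for the peak at each gene start (vertical axis), with the median as a point and the range over the calling lists as a line, for endothelial (red) and chondrocyte genes (grey). The median of Kdr (91.5) lies next to that of Col11a1 (93.1), and those of Sox17, Sox18, Tek and Cdh5 lie between 39.0 and 62.9. Where the start was not known, a region at either gene end is drawn. The Cdh5 point is the region at its upper gene end, while its 5′ end by general knowledge is the lower one. The Sox17 point is the region at its lower gene end, and its upper-end region is not drawn.

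By position, the 10 genes were read through their starts and through distal regions with different results. Starts, or either gene end where the start was not given, were covered in every list for 5 genes (Kdr, Flt1, Tek, Sox17 and Sox18). The same held for 63.7% of all protein-coding genes. No list covered those of 4 genes (Tie1, Emcn, Pecam1 and Vwf), against 30.5% of all genes. Cdh5 counted as covered in 11 lists, through its upper end only. Its lower end, the 5′ end by general knowledge, was 9.04 kb from the nearest region. Of the 53 regions, 19 were called in every list, or 35.8%, beside 35.6% of all regions, and 7 were called in 1 list, beside 17% of all regions. Regions more than 1 kb from any start numbered 38. Of these, 6 (15.8%) were in every list, against 20.9% of all distal regions. Of the 8 regions at starts of neighbouring genes, 7 were in every list, beside 87.2% of all regions at a start, so these add to a gene's count without speaking of the gene itself. In shares of regions called everywhere, the 10 genes were close to the genome as a whole.

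The classes were first compared by the number of the 53 regions called in a list per 10000 regions called. In bulk tissue, fewer endothelial cells and less open chromatin per cell cannot be told apart. Hindlimb lists held 8.56 ± 0.67 per 10000 (SD, n = 6 lists) and forelimb lists 7.95 ± 0.88 (n = 6). The hindlimb share was higher in 5 of 6 pairs matched for element and digit, and the difference of 0.609 was under 1 SD of the forelimb lists. Phalanges held 8.34 ± 1.02 and metapodials 8.16 ± 0.60 (n = 6 each). Digit I lists held 7.72 ± 1.05 (n = 4), digit III 8.48 ± 0.47 (n = 4) and digit V 8.55 ± 0.71 (n = 4). Every pair of classes overlapped. The lowest list was hand phalanges I, with 24 regions or 6.52 per 10000, and the highest share was in foot phalanges V, with 35 regions or 9.25 per 10000. Metacarpal III, the longest list, held 43 of the 53 and was the only list with 5 of them. Digit III lists held 37.75 ± 3.59 of the 53 and the other digits 29.875 ± 3.98 (n = 8). Digit III lists also called more regions of any kind, 44550.5 against 36771.4 on average. Per 10000 regions called, the values were 8.48 ± 0.47 and 8.14 ± 0.94.

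**Figure D4:**
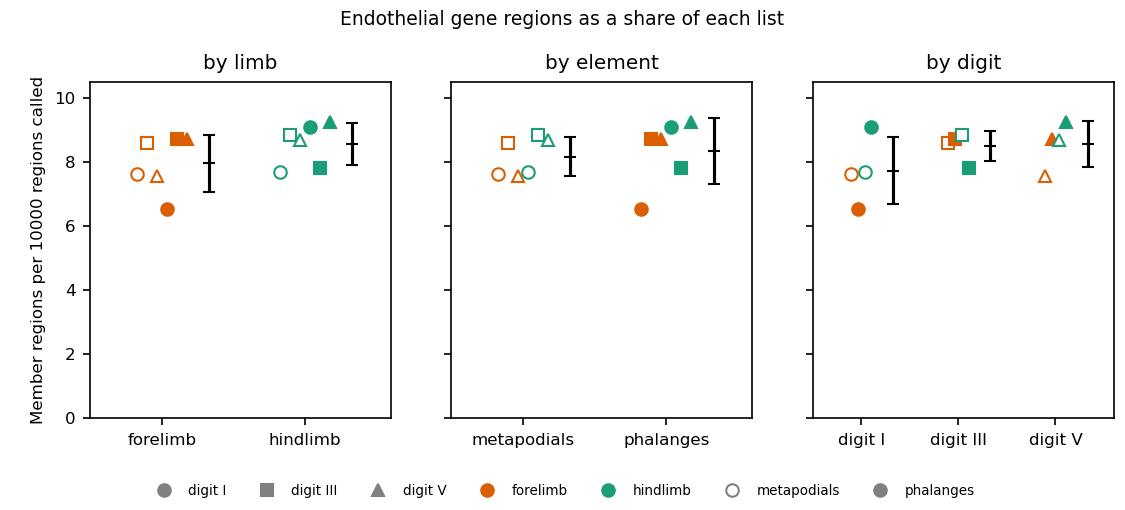
Regions of the 10 genes per 10000 regions called in each list (vertical axis), by limb, element and digit, with marker shape for digit, colour for limb and fill for element, and bars for mean ± SD. The classes overlap in every panel, and the lowest point is hand phalanges I at 6.52.

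The 34 regions that varied between lists were then compared by direction. More hindlimb than forelimb lists called 17 of them and more forelimb lists 12, or 50% and 35.3%, beside 44.2% and 40.2% of all 42190 varying regions. Phalanges lists led at 11 and metapodial lists at 16, or 32.4% and 47.1%, beside 38.1% and 51.0% overall. Digit III led the other digits at 28 (82.4%), beside 72.1% of all varying regions, digit I at 9 (26.5%), beside 32.3%, and digit V at 10 (29.4%), beside 20.1%. No test was made of these shares.

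Each gene was tested by its number of called regions per list, with a two-sided exact permutation test that swapped labels within the other factors, run over 19301 genes with at least 1 region. The smallest p the design allows is 0.0312 for limb or element and 0.0123 for a digit. Of 50 combinations of gene and comparison, 5 reached an unadjusted p of 0.05 or less, and none did after Benjamini-Hochberg adjustment over all genes. The same was true of every gene tested: 0 passed after adjustment in any comparison. Cdh5 made up 3 of the 5, and its counts include the regions at or inside Bean1. Its lists held 3.67 ± 1.21 regions in phalanges and 5.33 ± 1.75 in metapodials (exact permutation p = 0.0312, adjusted p = 0.861), where 0.948% of genes had fewer regions in phalanges at this threshold. Digit I lists held 2 to 4 regions of Cdh5 and the other digits 3 to 8, a difference of -2.25 (exact permutation p = 0.0247, adjusted p = 1), where 0.591% of genes had fewer. Digit III lists held 6 ± 1.41 regions of Cdh5 and the others 3.75 ± 1.28 (exact permutation p = 0.0247, adjusted p = 0.395), where 10.8% of genes had more. In each case the ranges overlapped.

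Emcn was called at its 1 region in 1 of 4 digit I lists and in all 8 others (exact permutation p = 0.037, adjusted p = 1). Flt1 had 7 to 8 regions in digit III lists and 3 to 8 in the others (exact permutation p = 0.0494, adjusted p = 0.455), among the same 10.8% of genes. When lists were cut to equal length, none of the 5 kept p at or below 0.05. The Cdh5 differences were then -1.17 for element, -1.5 for digit I and 0.75 for digit III, that of Emcn was -0.625, and that of Flt1 turned to -0.875. With 1 list left out at a time, Flt1 no longer passed in 11 of 12 cases and Emcn in 9 of 12. Cdh5 still passed in 8 of 12 cases for element, 9 for digit I and 9 for digit III. The Emcn difference ran from -1 to -0.667 in these cases. For a digit, leaving out a list also leaves fewer labellings to swap. No gene of the 10 passed for limb, where 0.606% of genes did in either direction, or for digit V, where 3.39% did. Vwf came nearest for limb, with 6 regions in hindlimb lists and 5 in forelimb lists on average (exact permutation p = 0.125).

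A wider list of 32 endothelial genes, none of them among the 10, had more covered starts. Regions lay at the start of 25 in every list, of Eng and Ets1 in some lists, and of Aplnr, Gpihbp1, Icam2, Ptprb and Robo4 in none. For limb, 1 of the 32 had more regions in hindlimb lists: Lmo2, a transcriptional cofactor of blood and endothelium, with 6.17 ± 1.17 against 4.33 ± 0.82 (exact permutation p = 0.0312, adjusted p = 1), where 0.513% of genes had more. For digit III, 6 had more regions, among 10.8% of all genes. The leading ones were Ets1, an ETS factor, with 13.75 ± 1.50 regions against 10 ± 1.69, and Nrp1, a co-receptor of vascular endothelial growth factor, with 5.75 ± 2.06 against 2 ± 1.07. Both had an exact permutation p of 0.0123 and an adjusted p of 0.395. For digit V, Erg and Ets2, also ETS factors, had fewer regions, where 3.34% of genes did. None of the 32 passed for element or digit I.

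The starts of all 10 genes on a list of vascular ligands, Vegfa, Angpt1 and Angpt2 included, were covered in every list. Mural cell genes, which mark the pericytes and smooth muscle round vessels, were covered at 7 of 8 starts in every list, and Acta2 in some. Genes of blood and macrophages were covered at 4 of 9 starts in every list, with Ptprc, Csf1r, Adgre1, Aif1 and Tyrobp at 0 lists. Skeletal muscle genes were covered at 1 of 8 starts in every list and at 4 in some lists. A list of 17 genes of tissues absent from the limb, such as liver and pancreas, had 4 starts covered in every list and 12 in none. Genes of perichondrium and osteoblasts were covered at 6 of 8 starts in every list, and Ibsp and Runx2 in some. The share covered in every list was 50% for the 10 endothelial genes, 78.1% for the wider endothelial list and 100% for vascular ligands. It was 87.5% for mural cells, 87.5% for the cartilage list and 75% for perichondrium and osteoblasts. It was 12.5% for skeletal muscle, 44.4% for blood, 23.5% for absent tissues and 63.7% for all protein-coding genes. The differences between lists were not tested, and the part of blood, muscle or mural cells in the regions of the 10 genes was not tested either.

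**Figure D5:**
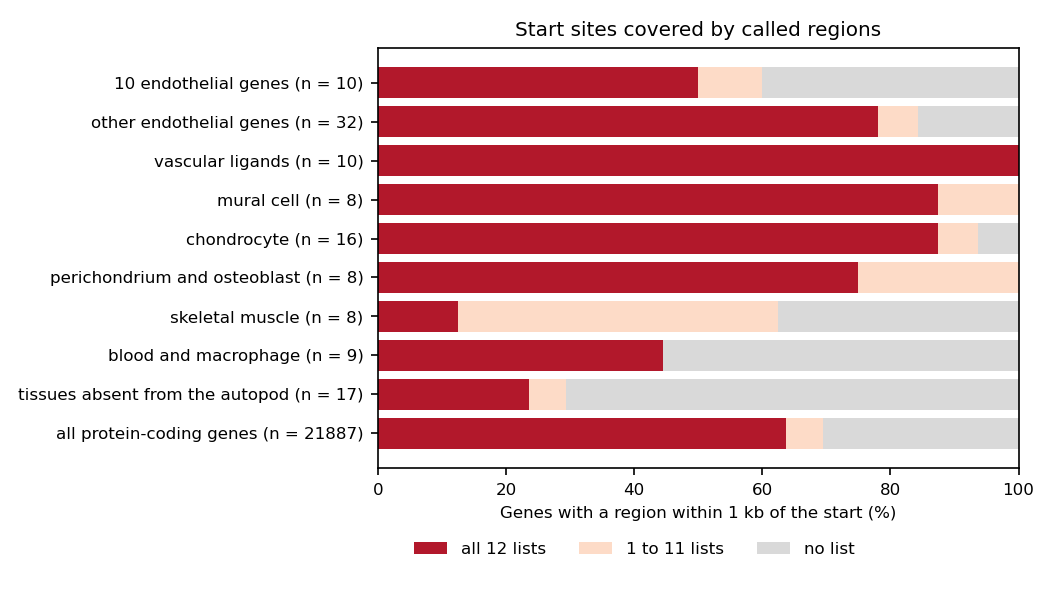
Share of genes in each list (horizontal axis, percent) whose start has a region within 1 kb in all 12 peak lists (red), in 1 to 11 (pink) or in none (grey). The 10 endothelial genes are covered in all lists at 50%, all protein-coding genes at 63.7%. Where the start was not given, either gene end counts, and Cdh5 is drawn as covered in 11 through its upper end only.

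The genes whose number of called regions followed the summed pattern of the 10 most closely, over 12 lists and among 2765 genes compared, were Arhgap35 (Pearson r = 0.831), Ptprt (0.747), Adamtsl1 (0.729), Lrrc69 (0.721) and Gm40011 (0.715). These are the highest of 2765 values, and the correlations are a description.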

How the data were processed

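ATAC-seq peak lists of 12 groups of mouse embryonic autopod tissue were analysed, 1 list per group of 3 libraries. The submitters' processing notes list MACS3, Picard 2.9.0 and Bowtie2 2.3.4.1, with mm10 as the build; read filtering, the shift of cut sites and the call settings are not given in the sources used here. Per the file names and peak names, peaks were called on pooled libraries and selected by irreproducible discovery rate. Each deposited peak carries the caller's fold enrichment (a ratio), its −log10 p-value, a score and the summit's offset; the deposited q-values were not used. No counts per library were used, so the depth behind each list is unknown and the replicates were not compared; the p-values measure the spread between lists.

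Regions were merged at 1 bp overlap. Gene positions and promoters came from RefSeq tables (GRCm38.p6); the start was known for 17492 of 21887 protein-coding genes, and otherwise either gene end was accepted, within 1 kb. Exons and introns are not told apart. Exact permutation tests swapped list labels within strata of the other factors (32 labellings for limb or element, 81 for a digit), adjusted within each of 5 comparisons over all genes, and were tested on simulated data. Python 3.11.15, numpy 2.4.6, pandas 2.3.3 and scipy 1.17.1 were used.

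The 10 genes and the other gene lists were chosen with earlier results of these data known. Regions were named where they lay at a start, separated a class, were in every list away from starts (up to 2 per gene by mean fold percentile), or varied most by limb, element or digit I (up to 2 per gene); other regions named were chosen after their values were seen. List genes past the test were named by smallest p, up to 4 in a comparison. Other list genes were named by the cover of their starts or as examples. Alternatives were a 10 kb flank, 50% cover of a region, equal list length, the more significant 50% of each list, 500-bp summit windows, called bases, and leaving out each list.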

Additional observations from a re-analysis of the deposited data

How the results depend on the processing

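With a 10 kb flank, 30 regions were left, 12 of them in every list; Emcn then had none and gave no value. With 50% cover, 9 regions were in every list. In the more significant 50% of each list, 25 regions were left, 11 in every list, 3 starts were covered in every list and 0 regions separated a class. Not divided by list length, phalanges minus metapodials was -0.667 regions. Combinations of gene and comparison at p of 0.05 or less numbered 1 with a 10 kb flank, 0 at equal list length, 2 in the more significant 50% and 10 by called bases. By called bases, Pecam1 and Vwf entered for limb (exact permutation p = 0.0312, adjusted p = 0.657, for each). Pecam1 and Tie1 entered for digit I, and Vwf and Sox17 for digit III. None passed after adjustment. The share of all genes past the threshold was not counted under these settings, so these counts have no background. The Cdh5 difference for digit I reversed to 0.125 in the more significant 50%, and the Flt1 difference for digit III to -0.875 at equal length. At equal length the Vwf hindlimb region no longer separated the limbs, and another Vwf region, chr6:125538608-125541382, separated digit III. The causes were not tested.

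Leaving out each list gave 48 to 55 regions in total, 19 to 21 in every list and 5 to 6 starts covered in every list. Hindlimb minus forelimb was 0.325 to 0.780 per 10000, phalanges minus metapodials 0.0328 to 0.562 and digit I minus the others -1.24 to -0.514. Under the other settings per 10000, hindlimb minus forelimb fell to 0.0341 in the more significant 50%, phalanges minus metapodials was -0.0950 with a 10 kb flank and 0.741 with 50% cover, and digit I minus the others ran from -1.33 with 50% cover to -0.120 in the more significant 50%. Combinations past the test numbered 1 to 4: 1 without metacarpal III or hand phalanges I, 2 without metacarpal V, hand phalanges V, metatarsal III or foot phalanges I, 3 without metacarpal I, foot phalanges III or foot phalanges V, and 4 without the remaining lists. Separating regions numbered 1 to 2: the Tie1 region was added without hand phalanges III and the Emcn region without metatarsal I. No paired analysis was possible because the files hold 1 pooled list per group and carry no replicate numbers: libraries cannot be paired, and lists were matched only by limb, element and digit.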
